A study of Mus musculus with 16 samples.

Results

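The 47 genes described here encode factors that build ribosomes in the nucleolus, and they were listed by name and looked up by mouse symbol in the count files. All 47 were found among the 50686 genes of the files, and all 47 passed the filter on low counts that 14164 genes passed over the 16 libraries. They were sorted by textbook role into 6 genes of RNA polymerase I transcription, 3 abundant nucleolar phosphoproteins, 4 box C/D and 4 box H/ACA small nucleolar ribonucleoprotein (snoRNP) genes, 18 small subunit assembly genes and 12 large subunit assembly genes.

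RNA was sequenced, with an mRNA library kit, from mouse bone marrow cells of strain C57BL/6N that had been transformed with a BCR-ABL1p185 retrovirus and grown as lines, a model of B cell acute lymphoblastic leukemia. The labels name wildtype and Cdk8 knockout replicates 1 to 4, which were taken as lines. Per the study, 4 individually derived lines of each genotype were sequenced. It describes the control lines as Cdk8 fl/fl, with no Cre named. In the other lines Vav-Cre, active in blood cells, had deleted Cdk8 (Cdk8 Δ/Δ Vav-Cre, here called knockout). All 16 libraries carry BCR-ABL1p185, and each line was grown for 48 h with 0.01% DMSO or with 1 µM Senexin B, an inhibitor of the CDK8 and CDK19 kinases, which gave 4 libraries per group. The study asked which transcripts depend on the CDK8 protein and which on its kinase activity.

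Ribosome production begins when RNA polymerase I copies the ribosomal DNA in the nucleolus. Small nucleolar RNPs then guide the methylation and pseudouridylation of the precursor RNA, and assembly factors fold, cut and export the small and large subunits. The genes of this pathway are known as a growth programme that MYC activates and that fast-dividing leukemic cells rely on.

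Cdk8 was examined first. Its RNA was at 68.6, 61.7, 63.2 and 65.7 counts per 1000000 reads after TMM normalisation (CPM) in wildtype DMSO replicates 1 to 4 and at 35.3, 52.0, 47.1 and 42.7 CPM in knockout DMSO. The DMSO groups did not overlap (p = 0.0286 by a two-sided exact permutation test, which 4 against 4 cannot go below), whereas with Senexin B the groups overlapped (exact permutation p = 0.114). The counts cover the whole gene, so any transcripts that lack the deleted exons would still be counted. The source of the Cdk8 reads in the knockout lines was not tested. The libraries held 13145876 to 18349425 counted reads. The summed level of 9 B lineage markers was 5258 to 7933 CPM, that of 6 T cell markers at most 1.87 CPM and that of 5 stroma markers at most 0.313 CPM. Among 7 myeloid markers, 6 averaged under 1 CPM, and the sum of all 7 ran up to 24.7 CPM in a knockout DMSO library. Among 6 erythroid and megakaryocyte markers, 5 averaged under 1 CPM, and the sum of all 6 ran from 4.07 to 264 CPM. In bulk RNA, fewer cells of a type and less RNA per cell cannot be told apart.

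One library stood apart in a way that touches these genes. In wildtype Senexin B replicate 2, the 841 genes with under 1500 base pairs of exon were 0.39 higher on the log2 scale (median) than their mean over the 16 libraries, and the 1633 genes over 8000 base pairs were 0.30 lower (median -0.30). In the other 15 libraries the short-gene median lay between -0.15 and 0.06. Nop10 and Nhp2, among the shortest of the 47, had their highest level in this library, and the long genes Utp20 and Heatr1 had their lowest. Not all members followed length. The 11 members under 2500 base pairs had a median deviation of 0.09 here, against 0.20 and 0.17 in wildtype Senexin B replicates 1 and 3. The 15 members over 4500 base pairs had -0.41 here. Imp3, the shortest (924 base pairs), was at 61.8 CPM here and 69.2 CPM in wildtype DMSO replicate 2. Wdr12, the longest, was at 67.8 CPM here and 67.9 CPM in replicate 3 of this group. The split and median of the 47 genes are given with and without it below, as are values of Nop10, Nhp2, Noc4l and Mybbp1a. Counts by role, by line and for the further gene list include it.

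**Figure D1:**
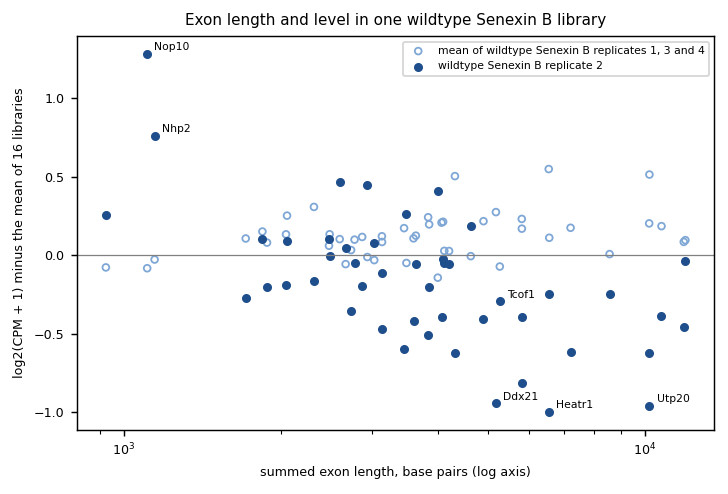
Deviation of each of the 47 genes from its mean over the 16 libraries, log2(CPM + 1), against summed exon length in base pairs on a log axis. Filled points are wildtype Senexin B replicate 2 and open points the mean of the 3 other wildtype Senexin B libraries; the short genes Nop10 and Nhp2 lie highest and the longer genes Heatr1, Utp20 and Ddx21 lowest in the filled points.

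The sequence shown first is the E-box CACGTG, the palindrome bound by MYC and related factors, because this pathway is a known MYC target. RefSeq promoter windows (GRCm38.p6, 250 bases before to 50 bases after the gene start) were given for 41 of the 47 genes. CACGTG was held by 10 of these (24.4%), against 8.09% of the 27025 genes given such windows. Those 27025 genes were not filtered by level, whereas all 47 members passed the filter on low counts. The excess was in the bases after the start. Counting only the 250 bases before it, 3 of the 41 (7.32%) and 6.86% of the 27025 genes held the motif. The palindrome reads the same on both strands, and each 30-base site is printed 5′ to 3′ along the gene's strand with the motif in capitals. These matches describe the letters and not binding.
Nop2 (chr6:125131811-125131840, plus strand, before the start): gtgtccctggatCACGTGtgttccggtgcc
Imp4 (chr1:34439696-34439725, plus strand, before the start): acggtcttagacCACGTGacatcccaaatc
Rrn3 (chr16:13780639-13780668, plus strand, before the start): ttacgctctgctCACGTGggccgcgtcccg
Rrn3 (chr16:13780472-13780501, plus strand, before the start): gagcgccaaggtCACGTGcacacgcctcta
Grwd1 (chr7:45830740-45830769, minus strand, after the start): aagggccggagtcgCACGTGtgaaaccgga
Ltv1 (chr10:13193092-13193121, minus strand, after the start): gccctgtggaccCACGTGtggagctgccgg
Wdr43 (chr17:71616220-71616249, plus strand, after the start): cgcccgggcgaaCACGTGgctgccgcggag
Tsr1 (chr11:74898092-74898121, plus strand, after the start): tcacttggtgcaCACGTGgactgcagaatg

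The other windows with the motif were those of Mybbp1a, Pes1 and Utp20. A second feature of the gene models was the snoRNA genes that lie inside host genes. In the GENCODE M21 annotation 8 of the 47 genes (17.0%) held annotated snoRNA genes on their own strand, 23 snoRNA genes in all, against 1.73% of the genes tested. These hosts were Ncl, Nop56, Nop58, Dkc1, Wdr43, Tsr1, Gnl3 and Ppan. Counting was not stranded, and exons of 20 members overlap another gene's exon, for Tsr1 over 32.3% of its exon bases (with Srr) and for Noc2l over 20.9% (with Samd11). Of the 50-base words of their transcripts, Ddx18 shares 55.9%, Tsr1 29.1%, Npm1 24.3%, Pes1 23.3%, Fbl 19.7%, Noc2l 19.2% and Nop56 18.6% with transcripts of other genes. The values of these genes are therefore uncertain.

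Levels per length, in transcripts per 1000000 from the counts and exon lengths (TPM, mean ± SD over the 16 libraries), spanned a wide range. The length was that of all annotated exons of a gene together, 10188 bases for Ncl and 11955 for Wdr12 against 1109 for Nop10. The order by TPM therefore depends on the gene models too. The short pseudouridylation factors Nop10 (432 ± 127 TPM) and Nhp2 (383 ± 67.8 TPM) led, followed by the histone chaperone and ribosome export factor Npm1 (366 ± 90.1 TPM), the nucleolar GTPase Gnl3 (328 ± 79.4 TPM) and the rRNA chaperone nucleolin, Ncl (319 ± 63.5 TPM). At the other end were the large subunit factor Wdr12 (17.1 ± 2.83 TPM) and Fbl (6.02 ± 1.01 TPM), the methyltransferase of box C/D snoRNPs. Neighbours in this order did not differ beyond their spread at either end, except that Fbl lay below Wdr12. Fbl lay far below its partners Nop56 (82.3 ± 18.2 TPM) and Nop58 (40.8 ± 11.6 TPM). Both Fbl (19.7%) and Nop56 (18.6%) are among the genes that share 50-base words with other transcripts.

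Ncl had the most reads, 1068, 866, 976 and 1163 CPM in wildtype DMSO replicates 1 to 4, 1462, 711, 1215 and 1128 CPM in wildtype Senexin B, 965, 1092, 1201 and 1419.9 CPM in knockout DMSO and 1144, 1439.6, 900.0 and 1072 CPM in knockout Senexin B. The 4 groups overlapped. Npm1 ran from 231 to 431 CPM in wildtype DMSO and from 306 to 454 CPM in knockout DMSO. Fbl stayed between 6.85 and 10.8 CPM in all 16 libraries.

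Among the polymerase I genes, the largest subunit Polr1a was at 97.1, 118, 114 and 88.8 CPM in wildtype DMSO replicates 1 to 4, with a mean of 107 ± 22.9 CPM (SD, n = 4) in wildtype Senexin B, 113 ± 18.6 CPM in knockout DMSO and 116 CPM in knockout Senexin B, and its groups overlapped. Ubtf, which opens ribosomal DNA for the polymerase, was at 237, 239.9, 246 and 247 CPM in wildtype DMSO, the smallest spread of the 47 genes in that group, and at 193, 257, 251 and 276 CPM in knockout DMSO. Rrn3, which recruits the polymerase, was at 94.2 to 125 CPM in wildtype DMSO and 104 to 142 CPM in knockout DMSO. Tcof1, the treacle protein of the same step, spread most in wildtype DMSO, at 305, 539, 937 and 476 CPM.

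The 47 genes moved together from library to library. The number of them above their own 16-library mean was 42 in wildtype Senexin B replicate 1, 43 in knockout DMSO replicate 4 and 43 in knockout Senexin B replicate 2, but 1 in knockout DMSO replicate 1. Over the 9875 genes above 5 CPM the share above their own mean was 48.0% to 54.8% in every library. The mean deviation of the 47 genes, log2(CPM + 1), was -0.15, -0.15, 0.05 and -0.08 in wildtype DMSO replicates 1 to 4 and 0.33, -0.17, 0.15 and -0.11 in wildtype Senexin B. It was -0.32, 0.02, 0.00 and 0.23 in knockout DMSO and 0.04, 0.23, -0.09 and 0.01 in knockout Senexin B. The 4 groups overlapped, with group means of -0.08 ± 0.09, 0.05 ± 0.23, -0.02 ± 0.23 and 0.05 ± 0.13 (SD, n = 4) in the same order. Myc was at 766, 306, 605 and 468 CPM in wildtype DMSO, 1336, 283, 470.0 and 201 CPM in wildtype Senexin B, 559.5, 973, 905 and 466 CPM in knockout DMSO and 562, 1169.7, 656 and 237 CPM in knockout Senexin B. Both Myc and the 47 genes were high in wildtype Senexin B replicate 1 and knockout Senexin B replicate 2, while knockout DMSO replicate 4 had the highest level of the 47 genes among the knockout DMSO libraries and the lowest Myc. The mean deviation of 8 proliferation genes was -0.12 in wildtype Senexin B replicate 1, -0.16 in knockout Senexin B replicate 2 and 0.35 in knockout DMSO replicate 4. The part of Myc and of proliferation in the level of the 47 genes was not tested.

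**Figure D2:**
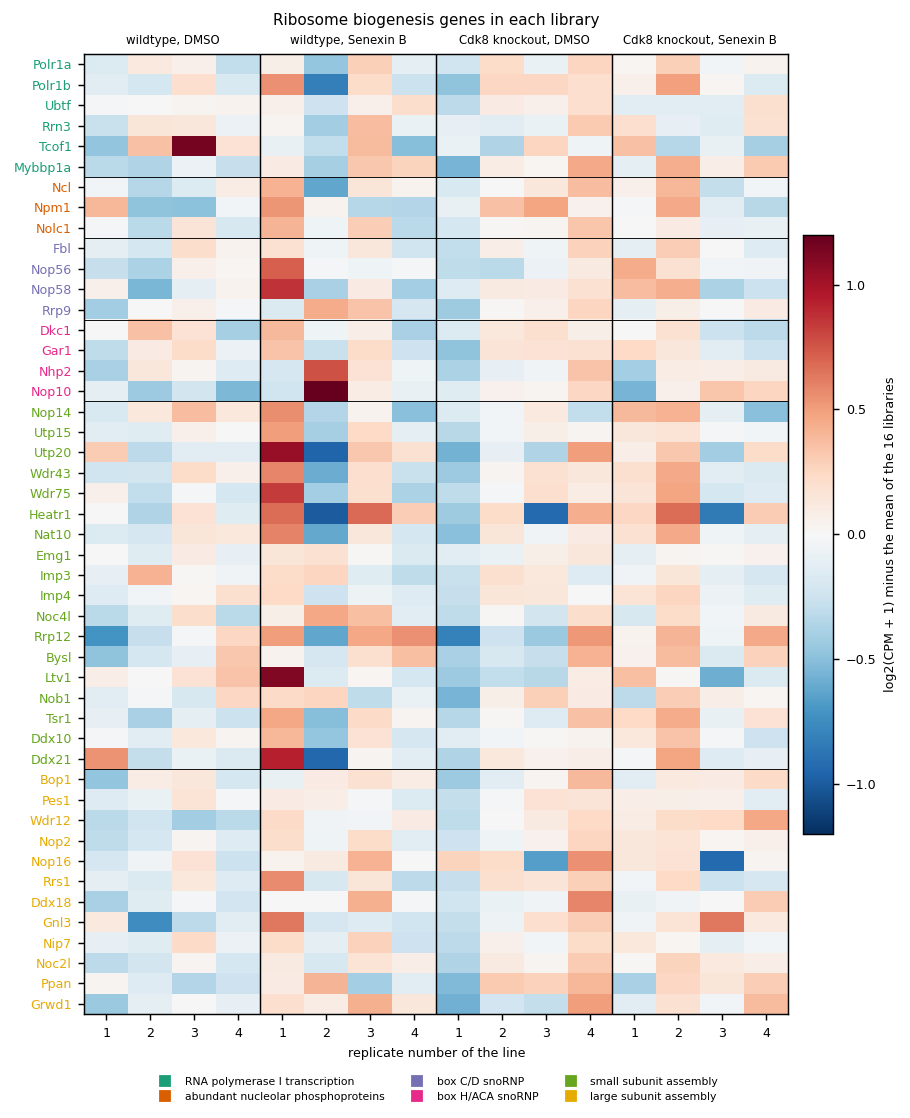
Level of each of the 47 genes (rows, coloured and separated by role) in the 16 libraries (columns, by group and replicate number), as log2(CPM + 1) minus the gene's mean over the 16 libraries. Whole columns are red or blue, such as wildtype Senexin B replicate 1 (42 of 47 genes above their mean) and knockout DMSO replicate 1 (1 of 47), and neither genotype nor treatment separates the columns.

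Loss of Cdk8 in DMSO went with no called change in any of the 47 genes. The test was edgeR's quasi-likelihood F test on all genes past the filter, and a call needed both a more than 2-fold change and a p, adjusted by Benjamini-Hochberg, below 0.05. Of 13174 genes tested, 1 was called (0.00759%), and 0 of the 47 by edgeR or by DESeq2. At an unadjusted p under 0.05 there were 2 members higher and 1 lower, against 2.38% and 2.94% of all genes tested. In direction, 35 members were higher and 12 lower in knockout lines, with a median log2 fold change of 0.04, against 50.3% higher and a median of 0.00 over all genes. By role, the 12 large subunit genes were all higher (median 0.20), the 3 phosphoproteins also (median 0.20), the 4 box H/ACA genes also (median 0.05), and the 18 small subunit genes were split 8 to 10 (median -0.01). The mean deviation of the large subunit genes was -0.22, -0.18, -0.02 and -0.18 in wildtype DMSO replicates 1 to 4. In knockout DMSO it was -0.30, 0.03, 0.00 and 0.35, so the groups overlapped and replicate 4 was highest. The median of the 47 genes moved from 0.04 to 0.16 without knockout DMSO replicate 1, the library where they were lowest, and to -0.02 without knockout DMSO replicate 4, where they were highest. No member had groups that did not overlap, against 1.48% of genes higher and 1.66% lower.

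The members with the smallest p in this comparison were Nop10, Wdr12 and Ltv1, each at an adjusted p = 0.897. Nop10, the small core protein of box H/ACA snoRNPs, was at 147, 118, 137 and 109 CPM in wildtype DMSO and 144, 166, 163 and 189 CPM in knockout DMSO. Its log2 fold change was 0.38 (SE 0.14), and 1 knockout library lay within the wildtype range. Wdr12, a partner of Pes1 and Bop1 in the PeBoW complex of the large subunit, was at 55.3, 58.9, 52.0 and 55.6 CPM in wildtype DMSO and 56.4, 69.3, 75.1 and 82.1 CPM in knockout DMSO, a log2 fold change of 0.36 (SE 0.13). Ltv1, needed for maturation of the small subunit in the cytoplasm, was at 86.5, 81.5, 92.1 and 103.9 CPM in wildtype DMSO and 60.0, 66.2, 64.6 and 87.1 CPM in knockout DMSO, a log2 fold change of -0.39 (SE 0.15). In all 3 the groups overlapped by a single knockout library.

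The next 5 had larger errors. The large subunit factors Ppan, Ddx18 and Gnl3 had log2 fold changes of 0.34 (SE 0.21), 0.30 (SE 0.20) and 0.29 (SE 0.20), with adjusted p = 0.908, 0.911 and 0.912. Mybbp1a, a nucleolar MYB-binding protein, had 0.30 (SE 0.20, adjusted p = 0.908) and Tcof1 had -0.46 (SE 0.32, adjusted p = 0.912). Without knockout DMSO replicate 4, Mybbp1a was at 0.13 and Ddx18 at 0.08, and without knockout DMSO replicate 1, Mybbp1a was at 0.46 and Ppan at 0.51. Gnl3 was at 0.15 without wildtype DMSO replicate 2, and Tcof1 at -0.10 without wildtype DMSO replicate 3, its highest library. The 95% interval lay within a 2-fold change in either direction for 46 of the 47 genes, Tcof1 being the exception (interval -1.18 to 0.27).

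With Senexin B present, again no member was called. Of 13010 genes 0 were called (0.0%) by edgeR and 3 by DESeq2, and none of these was a member; 202 genes and 0 members had an unadjusted p under 0.05 (0.876% of genes higher and 0.676% lower). No member had groups that did not overlap, against 0.546% of genes higher and 0.453% lower. Of the 47 genes 22 were higher and 25 lower in knockout lines (median -0.03, all genes 0.00, 49.4% higher), and with library totals in place of TMM the split was 26 to 21. Without wildtype Senexin B replicate 2 it was 14 to 33 (median -0.08), and without replicate 1 of that group it turned to 36 to 11 (median 0.07). The SE of the members had a median of 0.22, against 0.17 in DMSO. Wdr12 had the smallest p, at 81.6, 67.8, 67.9 and 74.6 CPM in wildtype and 74.0, 81.5, 82.6 and 96.4 CPM in knockout Senexin B, with a log2 fold change of 0.20 (SE 0.14), which was 0.12 without knockout Senexin B replicate 4. Ltv1 had -0.36 (SE 0.34), resting on wildtype Senexin B replicate 1, where it was at 177 CPM against 70.6 to 83.0 CPM in the other 3 wildtype libraries, and without that library it was 0.06. Nhp2 (-0.24, SE 0.24) and Nop10 (-0.34, SE 0.37) rested on wildtype Senexin B replicate 2, the library with high short genes, and were 0.00 and 0.14 without it. The remaining named members were the small subunit factor Noc4l (-0.18, SE 0.18), the large subunit factors Nop16 (-0.24, SE 0.26) and Gnl3 (0.18, SE 0.25), and the snoRNP chaperone Nolc1 (-0.13, SE 0.19). These values also moved with single libraries: Noc4l was -0.08 without wildtype Senexin B replicate 2, Nop16 -0.03 and Gnl3 0.03 without knockout Senexin B replicate 3, and Nolc1 -0.02 without wildtype Senexin B replicate 1. Leaving out another library instead took Noc4l to -0.28 and Nolc1 to -0.25 (both wildtype Senexin B replicate 4) and Gnl3 to 0.44 (wildtype Senexin B replicate 1). The adjusted p was 1.00 for all 8.

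Senexin B in the wildtype lines gave the most one-sided set of directions, and 1 line carried much of it. Of the 47 genes 42 were higher and 5 lower (median log2 fold change 0.18), against 52.9% of 12989 genes higher (median 0.02). With library totals in place of TMM the split was 31 to 16 (median 0.08), while the median of all genes then moved to -0.08. edgeR called 0 genes (0.0%) and DESeq2 18, and neither called a member. At an unadjusted p under 0.05 there were 2 members higher (1.89% of genes), Wdr12 and Grwd1, and 0 lower (1.90%). With the line as a block edgeR called 45 genes (0.346%) and 0 members, and 3 members were higher at an unadjusted p under 0.05 (4.95% of genes), the third being Noc4l, with 0 lower (5.39%). Leaving out both libraries of line 1 from the blocked fit, a setting chosen after the data were seen, left 23 genes higher and 24 lower with a median of 0.00. Without wildtype Senexin B replicate 2 the split stayed at 42 to 5, with a median of 0.25.

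The lines differed. In wildtype line 1, 46 of the 47 genes were higher with Senexin B than with DMSO (median change 0.42, log2(CPM + 1)), 20 of them by over 0.5, where 47.5% of all genes were higher. The counts of genes higher were 23 of 47 in line 2 (median -0.02), 33 in line 3 (median 0.14) and 21 in line 4 (median -0.04). The change of Myc was 0.80, -0.11, -0.36 and -1.21 in wildtype lines 1 to 4, and the mean change of the proliferation genes -0.12, 0.27, 0.34 and 0.34. In the knockout lines 44, 41, 17 and 2 of the 47 genes were higher in lines 1 to 4, with median changes of 0.37, 0.21, -0.07 and -0.20 and Myc changes of 0.01, 0.26, -0.46 and -0.98. Knockout lines 1 and 4 thus moved in opposite directions, with 44 members higher in the one and 45 lower in the other.

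**Figure D3:**
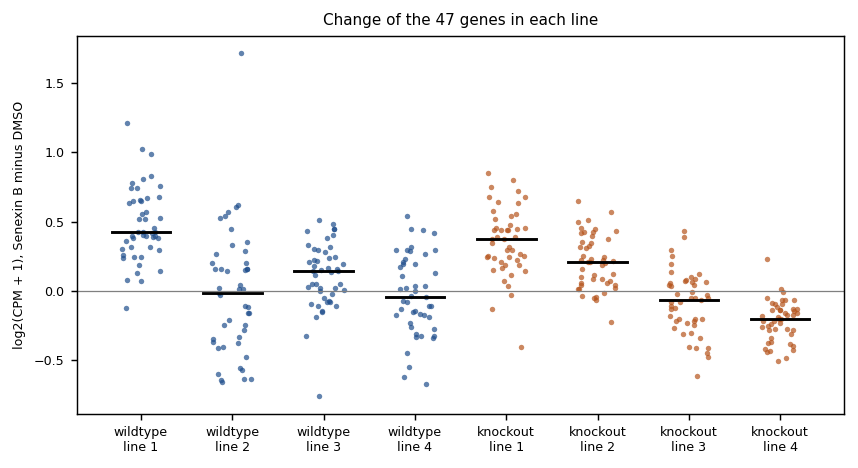
Change of each of the 47 genes with Senexin B, as log2(CPM + 1) minus the value in DMSO, in the 4 wildtype and 4 knockout lines; each point is a gene and the bar is the median. The medians were 0.42, -0.02, 0.14 and -0.04 in wildtype and 0.37, 0.21, -0.07 and -0.20 in knockout lines 1 to 4.

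Higher in 4 of 4 wildtype lines were 10 members (8.38% of all genes), Nhp2, Noc4l, Bysl, Bop1, Wdr12, Nop2, Nop16, Ddx18, Noc2l and Grwd1, and 0 were lower in all 4 (9.46%). With library totals 5 of them were left, Noc4l, Wdr12, Nop16, Ddx18 and Grwd1. The groups did not overlap for 3 members (0.847% of genes), Wdr12, Ddx18 and Grwd1, and with library totals for Wdr12 alone; 0 members lay lower without overlap (1.31%). Wdr12 (chr1:60069785-60098645, minus strand) was not called, but its 4 wildtype DMSO libraries, 52.0 to 58.9 CPM, lay under its 4 Senexin B libraries, 67.8 to 81.6 CPM. Its log2 fold change was 0.41 (SE 0.13, adjusted p = 1.00, and 0.358 with the line as a block), and the 95% interval was 0.11 to 0.71. Grwd1, a chaperone of ribosomal protein uL3 (chr7:45825223-45830944), was at 19.9, 25.4, 27.4 and 25.7 CPM with DMSO and 31.8, 29.3, 37.3 and 30.3 CPM with Senexin B, a log2 fold change of 0.40 (SE 0.17, adjusted p = 1.00). The RNA helicase Ddx18 was at 23.7, 28.2, 30.8 and 26.6 CPM with DMSO and 31.4, 31.2, 42.4 and 30.8 CPM with Senexin B, a log2 fold change of 0.33 (SE 0.17), which was 0.20 without Senexin B replicate 3.

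Nop10 had the largest log2 fold change here, 0.73 (SE 0.33), and it rested on replicate 2, at 389.6 CPM against 135, 169 and 149.7 CPM in the other Senexin B libraries, and was 0.25 without it. The remaining named members were Mybbp1a (0.37, SE 0.19), Noc4l (0.35, SE 0.19), the rRNA methyltransferase Nop2 (0.24, SE 0.15) and Noc2l (0.23, SE 0.15). Without Senexin B replicate 2, Mybbp1a was at 0.50 and Noc4l at 0.26. The adjusted p was 1.00 for all 8 and 0.358 to 0.660 with the line as a block. By role, the 12 large subunit genes and the 4 box C/D genes were all higher (medians 0.23 and 0.25), 15 of the 18 small subunit genes were higher (median 0.13), and the polymerase I genes had a median of 0.04, with Tcof1 at -0.49. The 95% interval lay within a 2-fold change for 42 of the 47 genes, the exceptions being Tcof1, Nop10, Utp20, Heatr1 and Rrp12. With the line as a block it did so for 46, with Nop10 as the exception.

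**Figure D4:**
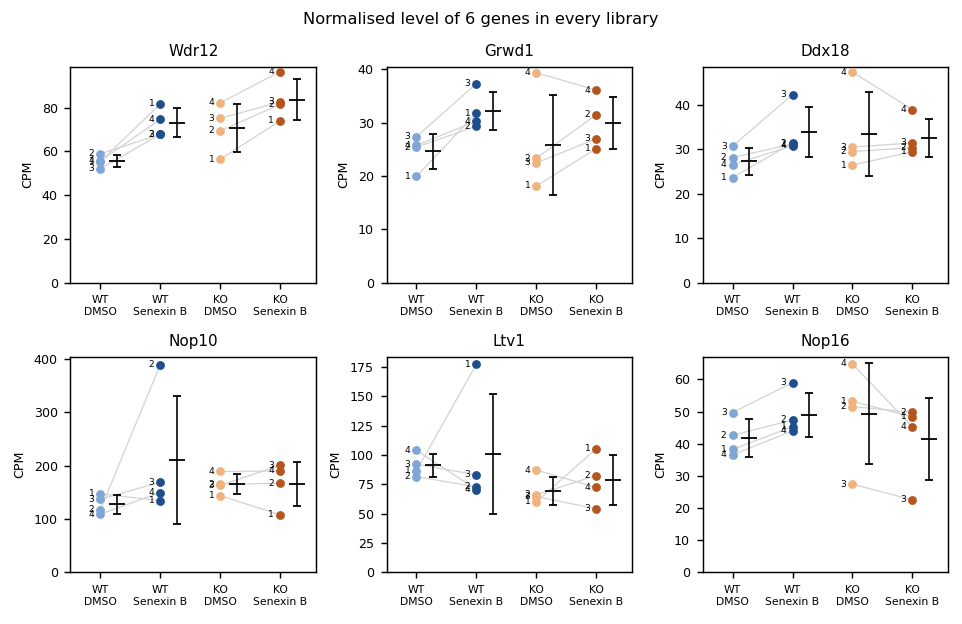
CPM of Wdr12, Grwd1, Ddx18, Nop10, Ltv1 and Nop16 in each library by group; grey lines join both libraries of a line, digits are line numbers, and black marks are means with SD (n = 4). Wdr12 was higher with Senexin B in all 4 wildtype lines (8.38% of all genes) and all 4 knockout lines (8.88%), and was called in neither genotype. Single libraries stand out for Nop10 (389.6 CPM) and Ltv1 (177 CPM).

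Senexin B in the knockout lines left the 47 genes near their DMSO level on average. Of 13285 genes 0 were called (0.0%) by edgeR, 7 with the line as a block (0.0527%) and 0 by DESeq2, none of them a member, and 243 genes and 0 members had an unadjusted p under 0.05 (0.933% of genes higher and 0.896% lower). With the block 2 members, Rrp12 and Wdr12, were higher at an unadjusted p under 0.05 (4.9% of genes) and 0 lower (5.4%). The groups overlapped for all 47 (0.888% of genes did not overlap and were higher, and 0.76% lower). There were 35 members higher and 12 lower (median 0.04, all genes 0.01, 51.5% higher), a split that became 24 to 23 with library totals (median 0.01), 18 to 29 without knockout DMSO replicate 1, and 39 to 8 when line 4 was left out of the blocked fit (median 0.17). Only Wdr12 was higher in 4 of 4 lines (8.88% of genes), at 56.4, 69.3, 75.1 and 82.1 CPM with DMSO and 74.0, 81.5, 82.6 and 96.4 CPM with Senexin B. Its log2 fold change was 0.24 (SE 0.14, adjusted p = 1.00, and 0.400 with the block), and 0.15 without knockout DMSO replicate 1. Only Nop16 was lower in 4 of 4 lines (10.3% of genes).

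The other named members in the knockout lines were the box C/D scaffold Nop56 (0.29, SE 0.15), and the small subunit genes Rrp12 (0.40, SE 0.30), Tsr1 (0.22, SE 0.19), Bysl (0.23, SE 0.21), Nat10 (0.19, SE 0.18), which acetylates 18S rRNA, and Utp15 (0.13, SE 0.12). Dkc1, the pseudouridine synthase of box H/ACA snoRNPs, had -0.15 (SE 0.14). Rrp12 was at 16.3, 24.6, 21.4 and 42.6 CPM with DMSO and 30.3, 39.2, 28.2 and 40.6 CPM with Senexin B, higher in 3 of the 4 lines. The adjusted p was 1.00 for these 7 genes, and each moved by over 1.5 times with a single library. Without knockout DMSO replicate 1, Rrp12 was at 0.23, Tsr1 at 0.13, Bysl at 0.14 and Utp15 at 0.05, and without knockout DMSO replicate 4, Rrp12 was at 0.74, Tsr1 at 0.37 and Bysl at 0.45. Nop56 was at 0.17 without knockout Senexin B replicate 1. Nat10 was at 0.07 and Dkc1 at -0.25 without knockout Senexin B replicate 2, and Dkc1 was at -0.08 without replicate 4 of that group. Of the small subunit genes 17 of 18 were higher (median 0.12), and the 3 phosphoproteins were lower (median -0.07). The 95% interval lay within a 2-fold change for 45 of the 47 genes, and for all 47 with the line as a block.

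**Figure D5:**
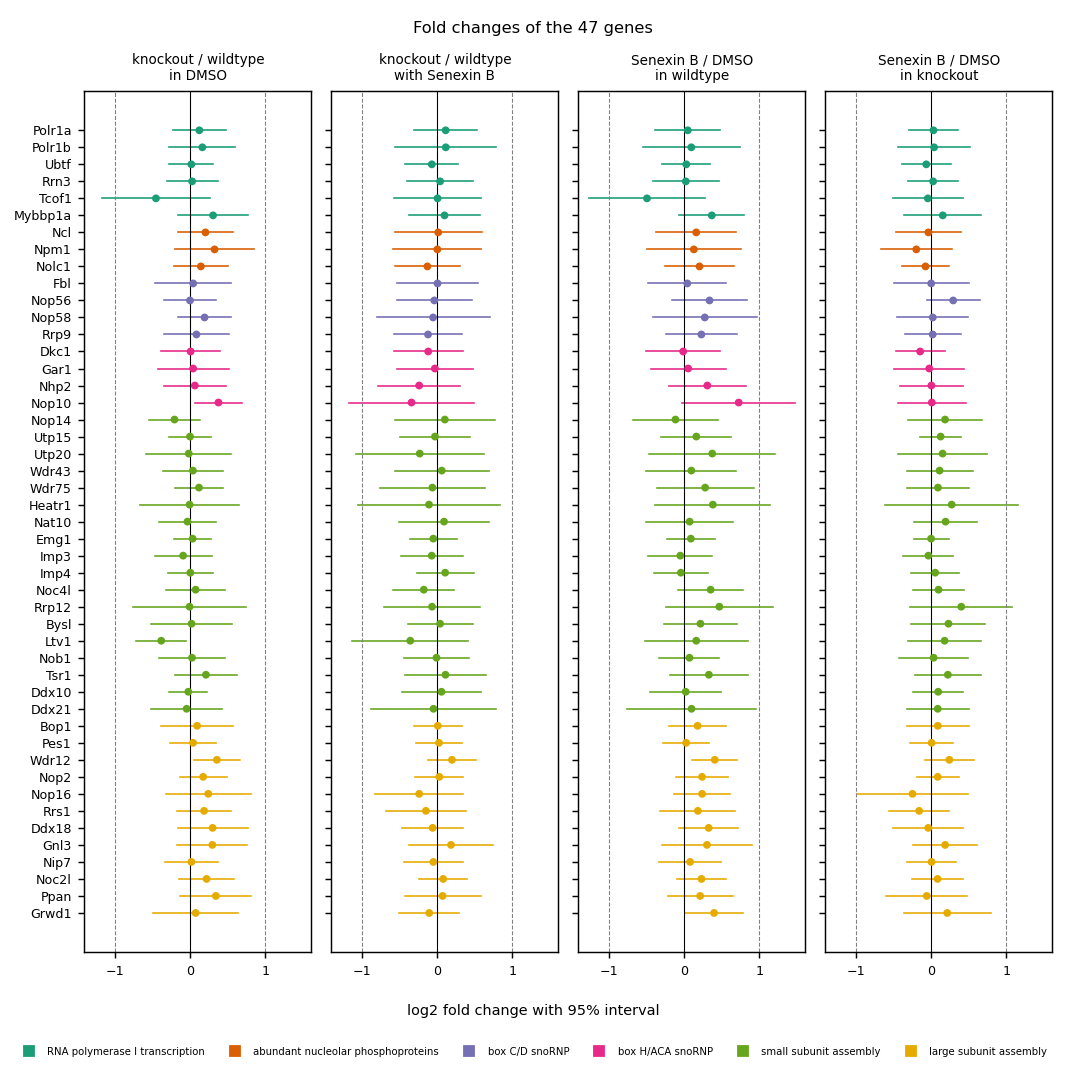
Log2 fold change of the 47 genes with 95% intervals from edgeR in the 4 comparisons, coloured by role; from the fits without the line as a block; dashed lines mark a 2-fold change. Most intervals cross 0, and those within the dashed lines number 46, 43, 42 and 45 from left to right.

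Whether Senexin B acted differently in the 2 genotypes was tested by the interaction over the 16 libraries, where a negative value means a smaller increase in knockout lines. Of 14164 genes 0 were called (0.0%) by edgeR and by DESeq2, and 67 genes and 0 members had an unadjusted p under 0.05 (0.184% of genes higher and 0.289% lower). Of the 47 genes 36 had a negative and 11 a positive term (median -0.08, all genes 0.00), and without wildtype Senexin B replicate 1 the split was 19 to 28 (median 0.02). Without replicate 2 of that group it was 41 negative and 6 positive (median -0.16). The smallest p belonged to Nop10 (-0.71, SE 0.41), Ddx18 (-0.35, SE 0.26), Nop16 (-0.48, SE 0.37) and the large subunit factor Rrs1 (-0.33, SE 0.28), with an adjusted p of 1.00 each. All 4 terms shrank when a library was left out: Nop10 to -0.24 without wildtype Senexin B replicate 2, Ddx18 to -0.14 without knockout DMSO replicate 4, Nop16 to -0.27 without knockout Senexin B replicate 3, and Rrs1 to -0.13 without wildtype Senexin B replicate 1. Nop16 (chr13:54584185-54590090, minus strand) was the only member higher in all 4 wildtype lines and lower in all 4 knockout lines, a pattern of 0.169% of genes. It was at 38.3, 42.6, 49.7 and 36.6 CPM with DMSO and 45.3, 47.4, 59.0 and 44.0 CPM with Senexin B in wildtype lines 1 to 4. In the knockout lines it was at 53.2, 51.6, 27.5 and 64.9 CPM with DMSO and 48.4, 49.8, 22.5 and 45.2 CPM with Senexin B. With the line as a block 0 genes were called, and the interaction term of Nop16 was -0.48 (SE 0.15, adjusted p = 0.991). It was then the only member among the 229 genes with an unadjusted p under 0.05 and a negative term (1.62%). Among the 230 genes with a positive term at that limit (1.62%) there were 0 members.

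A further list of 105 ribosome biogenesis genes, of which 104 matched a symbol (Riok2 did not) and 103 were tested, gave the same counts of calls: 0 in each of the 5 comparisons. In the genotype comparison in DMSO 7 of the 103 were higher and 0 lower at an unadjusted p under 0.05 (2.38% and 2.94% of all genes; 66 of 103 higher, median 0.06), with the small subunit factors Utp11 (0.31, SE 0.11) and Bms1 (0.43, SE 0.16) and the exosome nuclease Dis3 (0.31, SE 0.11) first, each at an adjusted p = 0.897. With Senexin B present 34 were higher and 69 lower in knockout lines (median -0.04, where 49.4% of all genes were higher). The first were Utp3 (0.58, SE 0.33), Trmt112 (-0.51, SE 0.35) and Ddx24 (0.46, SE 0.32). Of this list 0 had an unadjusted p under 0.05 (0.876% of all genes higher and 0.676% lower). Senexin B in wildtype lines gave 88 higher and 15 lower (median 0.14, where 52.9% of all genes were higher), led by the helicase Ddx56 at 38.7, 40.7, 44.6 and 55.5 CPM with DMSO and 56.5, 58.4, 66.4 and 67.3 CPM with Senexin B (0.48, SE 0.16, adjusted p = 1.00, and 0.271 with the block), then Tbl3 (0.39, SE 0.18) and Bud23 (0.33, SE 0.15). This split is from the main fit alone. Its libraries are those of the 47 genes, where line 1 carried much of the split. In the knockout lines 63 were higher and 40 lower (median 0.03, where 51.5% of all genes were higher), with Pwp2 (0.48, SE 0.21), the polymerase subunit Polr1d (-0.32, SE 0.15) and the termination factor Ttf1 (0.34, SE 0.20) first. The interaction was positive for 25 and negative for 78 (median -0.09), with 0 positive (0.184% of all genes) and 2 negative (0.289%) at an unadjusted p under 0.05, Utp11 and Ebna1bp2.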

How the data were processed

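RNA from 16 libraries of 8 lines was read as single-end 50-base reads. Per the labels and file headers, Trimmomatic, STAR and featureCounts 1.5.1 (GENCODE M13, GRCm38, no strand option) were used by the authors to trim, map and count, and the deposited values are raw counts. In 15 of the 16 file headers the path names a folder called modified. Symbols were matched for 50376 of 50686 genes. Groups were taken from the labels, and replicate numbers as lines.

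Counts were fitted in R 4.3.3 with edgeR 4.0.16 (TMM, filterByExpr, robust quasi-likelihood test, Benjamini-Hochberg adjustment). Only the groups compared entered a fit, and the interaction used all 16 libraries. In simulated counts 200 genes were changed by 2 on the log2 scale. The fit called 65% of them for genotype in DMSO and 51.5% with Senexin B. It called 62.5% for Senexin B in wildtype and 49% in knockout lines. SE came from the fold change and F. DESeq2 1.42.0, RLE, library totals, filters, call limits, 1 fit over all libraries, the replicate block and leaving out each library were alternatives. Single values were compared by exact permutation of log2(CPM + 1).

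DMSO and Senexin B libraries of the same number deviated together (r = 0.559 to 0.781 in wildtype and 0.765 to 0.872 in knockout lines), so the number marks the line. The labels do not say whether lines of a genotype came from separate animals. In the genotype comparisons the p-values measure the spread between these lines. In the Senexin B comparisons and the interaction, the fits without the block treat both libraries of a line as separate samples. With the block their p-values measure the spread of the changes within lines. No pair of libraries was a copy (chi-square per gene at least 20.8 over 120 pairs).

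The members, lists and tests were chosen with earlier results of these data known. Named are the 8 members with the smallest p in each comparison (4 in the interaction), fixed core genes, and the 3 pathway genes with the smallest p; Rrp12, Nop16 and others singled out by pattern were chosen after their values were seen.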

Additional observations from a re-analysis of the deposited data

Results flagged for a closer look

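In 9 of the groups of 4 libraries examined for the named genes, 1 library stood far from the other 3 by the ratio of the gap to the range (Dixon's 95% limit for 4 samples); chance gives about 1 in 20. In wildtype Senexin B these were Ddx18 (0.939, highest in replicate 3), Gnl3 (0.896, highest in replicate 1), Nop56 (0.963, highest in replicate 1) and Rrp12 (0.930, lowest in replicate 2). In knockout DMSO they were Ppan (0.872, lowest in replicate 1) and Rrn3 (0.907, highest in replicate 4). In knockout Senexin B they were Nhp2 (0.942, lowest in replicate 1), Nop16 (0.879, lowest in replicate 3) and Ubtf (0.963, highest in replicate 4). In all, 120 groups were examined.

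Nop16 was higher with Senexin B in every wildtype line and lower in every knockout line, with an interaction term of -0.477 on the log2 scale whose adjusted p was 1.00.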

How the results depend on the processing

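No member was called in any comparison under any alternative run. The number of genes called in all moved more. For genotype in DMSO it was 21 with DESeq2 and 0 with at least 10 counts in every library, with the replicate block (also with no fold change limit, and also with the gene length trend removed) and without any single replicate (0 to 0). For genotype with Senexin B it was 3 with DESeq2 and 1 with an adjusted p limit of 0.1, with no filter, or with all 16 libraries in one fit. For Senexin B in wildtype lines it was 18 with DESeq2, 3 with no filter, 45 with the replicate block, 46 with the block and no fold change limit, 41 with the block and the gene length trend removed, and 0 to 538 when a library or line was left out, with 538, 9 and 28 in the blocked fit without line 1, 3 and 4. For Senexin B in knockout lines it was 7 with the replicate block, with or without the fold change limit, 8 with the block and the gene length trend removed, and 0 to 31 when a library or line was left out.

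The median log2 fold change of the 47 genes ranged, when a library or line was left out, from -0.02 to 0.16 (genotype in DMSO), -0.09 to 0.07 (genotype with Senexin B), -0.00399 (blocked fit without line 1) to 0.25 (Senexin B in wildtype), -0.04 to 0.17 (Senexin B in knockout) and -0.20 to 0.02 (interaction). With Senexin B present, the genotype log2 fold change of Ltv1 ran from -0.53 to 0.0598 over the left-out libraries and turned positive without wildtype replicate 1; those of Nhp2 (-0.36 to 0.00218) and Nop10 (-0.51 to 0.14) turned positive without wildtype replicate 2. Same-numbered libraries of different genotypes had r from -0.15 to 0.43, highest for number 4 in both treatments (0.256 in DMSO and 0.43 in Senexin B). The labels do not say whether they share more than the number. Whether the block carries a pairing in the genotype comparisons was not tested. The settings with the gene length trend removed, with the block and no fold change limit, and without single lines in the blocked fit were chosen after the data were seen. A 95% interval that reached past a 2-fold change did not exclude one.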
